A study of Arabidopsis thaliana with 18 samples.

Results

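The galactinol and raffinose oligosaccharide enzymes are 8 Arabidopsis thaliana genes, taken by locus identifier from the 33602 genes in each table. They are the galactinol synthase genes GolS1 (AT2G47180), GolS2 (AT1G56600), GolS3 (AT1G09350) and GolS4 (AT1G60470), the stachyose synthase gene STS (AT4G01970), the raffinose synthase gene RS5 (AT5G40390), and its relatives DIN10 (AT5G20250) and SIP2 (AT3G57520). RNA-seq was made from whole seeds of 2 genotypes, each with a complementing copy of the gene under study, which from knowledge of the study is FLOE1 (AT4G28300), a gene whose protein condenses as the embryo takes up water. In ΔDS seeds the copy lacks the DS segment and in +WT seeds it is intact. Dry seeds, seeds imbibed on MS medium without NaCl and seeds imbibed on MS medium with 220 mM NaCl were taken from both genotypes. The 6 groups had 3 replicates each, 18 samples in all. Imbibed and salt seeds spent 5 days at 4 °C without light and then 4 hours at 22 °C in light, whereas dry seeds had no treatment. The complemented background, the promoter of the copies, the number of transgenic lines and the mother plants behind the replicates were not given in the sources used here. The p-values therefore cover the spread between these samples alone, and the deletion cannot be told apart from a property of a line.

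Galactinol synthase joins UDP-galactose to myo-inositol and makes galactinol. Raffinose synthase moves the galactosyl group of galactinol onto sucrose, and stachyose synthase adds a further group to raffinose. These sugars build up in the maturing seed, where they are known as protectants of the dry embryo and as a reserve that is used after water uptake. Whole seeds were measured, so fewer cells of a type and less RNA per cell cannot be told apart.

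Every fold change below is the authors' log2 value with its standard error (SE), taken as ΔDS over +WT, since the names give that order and the headers state none. A gene passed the test, or rose or fell, where the authors' adjusted p was under 0.05. Counts called implied are the level in 1 genotype worked out from the authors' mean and fold change, and are approximate. The authors' mean normalised counts had sums of 26367661 (dry), 24526188 (imbibed) and 26080227 (salt). FLOE1 itself had 180, 293 and 431 implied normalised counts in dry, imbibed and salt ΔDS seeds, against 8288, 13978 and 13777 in +WT seeds, by the authors' deposited tables. The deletion and the low level of its transcript cannot be told apart. Each table rests on 6 libraries whose size factors spanned 1.36-fold to 1.54-fold, and the mean size factor was 1.12 to 1.20 times higher in ΔDS. Markers of embryo and storage, fixed as 5 genes, passed the test in 4, 5 and 4 cases in dry, imbibed and salt seeds, all lower in ΔDS, where 3.10%, 19.5% and 6.99% of all genes were called lower. Their summed level, with CPM standing for the normalised count scaled by the sum of the table, was 27891, 38527 and 68858 CPM in ΔDS seeds, against 32116, 90508 and 88216 CPM in +WT seeds. The 4 endosperm markers summed to 33071, 13520 and 22376 CPM in ΔDS seeds, against 42201, 27547 and 31253 CPM in +WT seeds. Most of that sum was EPR1 (AT2G27380), with 871903, 301897 and 581155 implied normalised counts in dry, imbibed and salt ΔDS seeds, and it was the 1 marker called lower in each state. In ΔDS seeds 1 other was higher in dry (AGL62), 3 in imbibed (AGL62, MAN7 and EXPA2) and 2 in salt (AGL62 and MAN7), while 2.96%, 21.3% and 6.98% of all genes were called higher. AGL62 (AT5G60440) had low counts, at an implied 26.1, 24.3 and 20.6 in dry, imbibed and salt ΔDS seeds, against 7.46, 0.37 and 0.20 in +WT seeds. Among 4 seed coat markers, summed at no more than 5.67 CPM in any group, TT10 was listed at 0 in all tables and BAN at 0 in imbibed seeds. Of 2 seed coat markers tested in imbibed seeds 1 rose, where 21.3% of all genes were called higher. It was TTG2 (AT2G37260), with 85.1 implied normalised counts in ΔDS against 20.4 in +WT (2.06 ± 0.43 in the authors' deposited table). In salt seeds 0 of 2 passed, and in dry seeds 0 could be tested. The part of these markers in the results on the oligosaccharide genes was not tested.

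The stretches of 250 bases before the annotated starts of GolS1, STS and DIN10 are shown because these members had the largest genotype effects past the threshold. They were read in the direction of the gene from the RefSeq copy of TAIR10.1, whose nuclear chromosomes are those of the authors' build TAIR10. Capitals mark matches, on either strand, to ACGTG (the core of the abscisic acid response element), CACGTG (the G-box, which holds ACGTG on both strands), CCGAC (the core of the dehydration and cold response element), CATGCA (the RY element of seed promoters) or GAANNTTC (a heat shock element core).
GolS1: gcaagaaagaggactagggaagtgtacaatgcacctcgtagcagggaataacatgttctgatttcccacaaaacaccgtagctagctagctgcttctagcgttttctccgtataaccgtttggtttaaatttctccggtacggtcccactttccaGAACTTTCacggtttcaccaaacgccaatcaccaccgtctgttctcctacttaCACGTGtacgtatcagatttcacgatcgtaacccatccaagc
STS: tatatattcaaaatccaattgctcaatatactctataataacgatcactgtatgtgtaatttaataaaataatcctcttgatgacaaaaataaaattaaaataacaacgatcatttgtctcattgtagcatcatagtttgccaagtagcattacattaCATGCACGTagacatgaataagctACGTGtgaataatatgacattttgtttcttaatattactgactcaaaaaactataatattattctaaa
DIN10: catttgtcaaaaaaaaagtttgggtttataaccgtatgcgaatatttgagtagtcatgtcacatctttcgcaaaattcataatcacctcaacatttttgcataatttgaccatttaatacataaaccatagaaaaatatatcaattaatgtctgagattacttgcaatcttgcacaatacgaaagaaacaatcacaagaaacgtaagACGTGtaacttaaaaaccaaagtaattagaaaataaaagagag
The windows are chr2:19370479-19370728 for GolS1 and chr4:857402-857651 for STS, both on the minus strand, and chr5:6833314-6833563 on the plus strand for DIN10, and no other gene overlaps them. GolS1 lies at chr2:19368798-19370478 and STS at chr4:853922-857401, and DIN10 at chr5:6833564-6836862. On the plus strand lie GolS2 at chr1:21207537-21209635, GolS3 at chr1:3019639-3021443 and RS5 at chr5:16161449-16165453, and on the minus strand GolS4 at chr1:22278975-22280593 and SIP2 at chr3:21288742-21293171. All 8 are annotated as protein-coding genes. The ACGTG core was found before 5 of the 8 genes (GolS1, GolS3, STS, DIN10 and SIP2), and 22.9% of 27561 protein-coding genes hold it in the same window. CACGTG stood before GolS1, GolS3 and SIP2 and in 6.46% of all windows. A heat shock element core was present before GolS1 and GolS2 (9.55% of all windows), CCGAC before GolS2, GolS3 and RS5 (11.97%), and CATGCA before STS (8.41%), where it overlaps an ACGTG match on the other strand. GolS4 held none of these letters in the window. A match describes the letters and does not show a bound site.

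**Figure D1:**
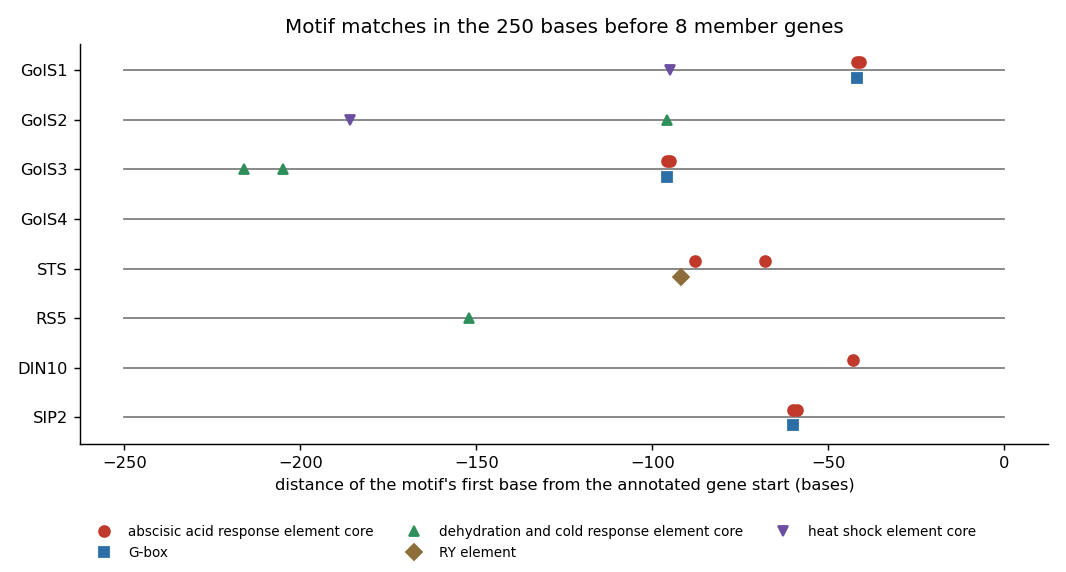
Matches to 5 motifs in the 250 bases before each of the 8 genes, plotted by the distance in bases of the first base of the match from the annotated gene start. The matches to the abscisic acid core and G-box lie within 96 bases of the start in the 5 genes that have them.

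The galactinol synthase genes GolS1 and GolS2 were among the most abundant transcripts of the dry seed, and GolS3 and GolS4 were at or near 0. Levels are given as CPM per kilobase of exon, worked out for each genotype from the authors' mean and fold change. GolS2, known as a drought-responsive enzyme, ranked 122 and GolS1, known for its response to heat, drought and salt, ranked 153 from the top of 21916 genes in the dry table. GolS2 stood at 649, 13.4 and 126 in dry, imbibed and salt ΔDS seeds, against 667, 19.5 and 113 in +WT seeds. It was thus 48.3-fold lower in imbibed than in dry ΔDS seeds and 34.3-fold lower in imbibed than in dry +WT seeds. Salt seeds held 9.39 times as much of it as imbibed seeds in ΔDS and 5.79 times as much in +WT. The tables were normalised separately, so these ratios between states are a description with no test.

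GolS1 differed less between states than GolS2. Its level was 469, 63.4 and 120 in dry, imbibed and salt ΔDS seeds, against 494, 191 and 181 in +WT seeds. In +WT seeds the imbibed and salt levels lay 0.07 apart on the log2 scale, a gap that has no SE or test here. In ΔDS seeds the salt level was 1.90 times the imbibed level. GolS1 shares 43 exon bases with ARF1A1C (AT2G47170) on the other strand, and whether reads were counted by strand was not given in the sources used here. The authors' deposited table has ARF1A1C at 0.75 ± 0.18 in imbibed seeds, opposite in sign to GolS1.

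GolS3, known for its response to cold, was listed at 0 in all 3 tables. Both imbibed states included 5 days at 4 °C. All 279 organelle genes are listed at 0 as well, so a 0 may not be a measured absence. GolS4 was listed at 0 in imbibed seeds. Whole reads could be worked back from the deposited mean for genes with few reads, because each library adds a fixed amount to the mean per read. For GolS4 this gave 1 read in 1 ΔDS library and none in +WT libraries of dry seeds, and none in ΔDS libraries and 1 read in 1 +WT library of salt seeds. These counts are too low for a fold. Of its words of 31 bases, 3.33% are shared with its neighbour GolS7 (AT1G60450), while no member shares such a word with another member.

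**Figure D2:**
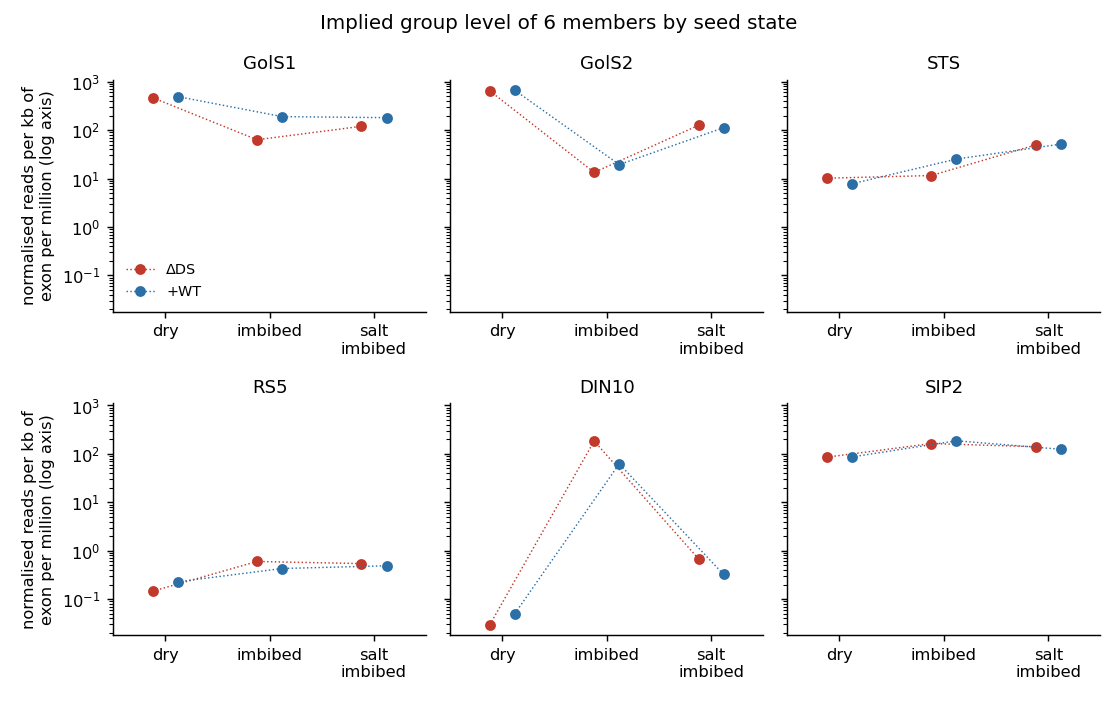
Level of 6 members as CPM per kilobase of exon, on a log axis, in dry, imbibed and salt imbibed seeds of ΔDS (red, left) and +WT (blue, right). Points are group levels implied by the authors' means and fold changes, without error bars, and dotted lines join states that were normalised separately. GolS2 is far lower in imbibed than in dry seeds, whereas DIN10 is highest in imbibed seeds at 184 in ΔDS and 62.2 in +WT.

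In each seed state the table compares ΔDS with +WT seeds, which differ in the DS segment and in the FLOE1 transcript level given above. In dry seeds neither abundant galactinol synthase passed the test. The authors' deposited table implied 17213 normalised counts of GolS1 in ΔDS and 18135 in +WT seeds, with a log2 fold change of -0.08 (95% interval -0.16 to 0.01). For GolS2 it implied 24572 in ΔDS and 25227 in +WT seeds, at -0.04 (-0.13 to 0.06). With equal totals in both genotypes in place of size factors both turned to the other sign, as did SIP2, and none of them passed.

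In imbibed seeds GolS1 fell to an implied 2165 normalised counts in ΔDS, against 6507 in +WT, and was 3.01-fold lower (-1.59 ± 0.28, adjusted p = 4.49e-07 by DESeq2 in the authors' deposited table). GolS2 stood at 473 in ΔDS and 685 in +WT seeds, and missed the threshold at -0.53 (95% interval -1.19 to 0.13) in the authors' deposited table. In salt seeds GolS1 fell again, to 4362 in ΔDS against 6585 in +WT, 1.51-fold lower (-0.59 ± 0.069, adjusted p = 1.46e-15 by DESeq2 in the authors' deposited table). GolS2 was at 0.16 ± 0.081 in salt seeds in the authors' deposited table (adjusted p = 0.190 by DESeq2), with 4722 in ΔDS and 4218 in +WT, and with equal totals it passed at 0.32 (adjusted p = 8.62e-04). That scaling moved every gene of the salt comparison upward. The median tested gene then stood at 0.16, and 89.8% of all calls were higher in ΔDS. In salt seeds GolS1 thus passed and GolS2 as deposited did not, and the difference between the genes was not tested.

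Summed over the 4 genes, the galactinol synthase level was 1118 in dry ΔDS and 1161 in dry +WT seeds. It was 76.8 in imbibed ΔDS and 210 in imbibed +WT seeds, and 246 in salt ΔDS and 294 in salt +WT seeds. GolS1 made up 82.5% of that sum in imbibed ΔDS and 90.7% in imbibed +WT seeds. In salt seeds its share was 48.8% in ΔDS and 61.7% in +WT.

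STS encodes stachyose synthase, which in Arabidopsis seeds also has raffinose synthase activity. By the authors' deposited table it was 1.30-fold higher in dry ΔDS seeds (0.38 ± 0.098, adjusted p = 0.00325 by DESeq2), with 868 implied normalised counts in ΔDS and 665 in +WT. In imbibed seeds it fell 2.19-fold in the authors' deposited table (-1.13 ± 0.30, adjusted p = 9.05e-04 by DESeq2), to 916 in ΔDS against 2004 in +WT. In salt seeds the values were 4183 in ΔDS and 4342 in +WT, at -0.05 (95% interval -0.21 to 0.11) in the authors' deposited table, and at 0.10 with equal totals, past the threshold in neither. STS was the 1 member with calls in opposite directions, higher in ΔDS in the dry state and lower in the imbibed state.

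Between states STS ran from low in dry to high in salt seeds. Its level was 10.2, 11.6 and 49.7 in dry, imbibed and salt ΔDS seeds, against 7.81, 25.3 and 51.5 in +WT seeds. Imbibed seeds held 1.14 times the dry level in ΔDS and 3.24 times the dry level in +WT. Salt seeds held 4.87 times the dry level in ΔDS and 6.60 times in +WT.

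RS5, the raffinose synthase of leaves under stress, had few reads in every state. In dry seeds its normalised counts were 19.9, 6.45 and 8.10 in the ΔDS libraries, against 22.7, 10.2 and 21.1 in the +WT libraries. The groups overlapped, at means of 11.5 ± 7.31 in ΔDS and 18 ± 6.77 in +WT (SD, n = 3 each). In salt seeds the ΔDS libraries held 35.7, 36.3 and 55.4, against 42.8, 33.2 and 37.8 in the +WT libraries, which overlapped as well. In the authors' deposited tables RS5 missed the threshold in dry (-0.65, 95% interval -1.80 to 0.51), imbibed (0.48, -0.22 to 1.18) and salt seeds (0.15, -0.54 to 0.84). Its highest level per kilobase was 0.600, in imbibed ΔDS seeds.

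DIN10 and SIP2 are related in sequence to raffinose synthases. DIN10 was found as a gene induced by darkness and sugar starvation, and SIP2 is known as an alkaline alpha-galactosidase that splits raffinose. DIN10 had the widest range of the 8 genes. It ranked 18520 of 21916 genes in dry, 676 of 22326 in imbibed and 15532 of 22770 in salt seeds. Its level was 0.029, 184 and 0.678 in dry, imbibed and salt ΔDS seeds, against 0.050, 62.2 and 0.323 in +WT seeds. Imbibed seeds held 272 times the salt level in ΔDS and 192 times the salt level in +WT.

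Dry libraries held 6, 1 and 1 reads of DIN10 in ΔDS, against 1, 3 and 7 in +WT, and the authors' table gives no adjusted p for it. In imbibed seeds the gene rose to an implied 14103 normalised counts in ΔDS, against 4757 in +WT, and was 2.96-fold higher (1.57 ± 0.29, adjusted p = 2.53e-06 by DESeq2 in the authors' deposited table). In salt seeds the ΔDS libraries held 71, 57 and 54 reads, against 32, 26 and 15 in the +WT libraries. Scaled by size factors these were 59.0, 48.1 and 58.7 in ΔDS, against 32.6, 28.8 and 17.2 in +WT. Leaving out each of the 6 libraries in turn gave log2 ratios of the means between 0.85 and 1.26, without a test. The means were 55.2 ± 6.20 in ΔDS and 26.2 ± 8.04 in +WT (SD, n = 3 each), and the authors' deposited table gave 1.07 ± 0.36 (adjusted p = 0.0267 by DESeq2). DIN10 shares 82 exon bases with AT5G20260 on the other strand, which had a mean of 10.15 normalised counts in imbibed seeds and 0.600 in salt seeds in the authors' deposited tables.

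**Figure D3:**
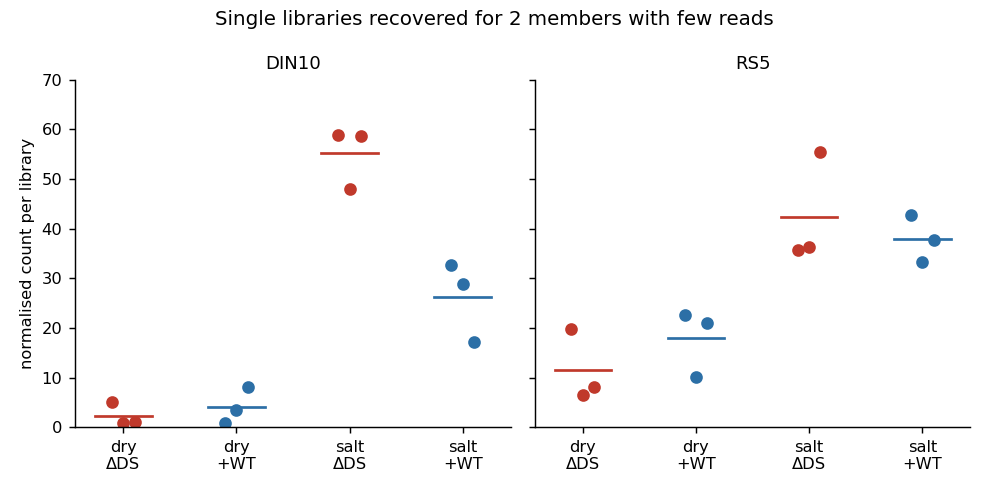
Normalised count of DIN10 and RS5 in single libraries of dry and salt imbibed seeds, worked back from the authors' means, with ΔDS in red and +WT in blue. Points are libraries, in no order of replicate number, and bars are means of 3. For DIN10 in salt seeds the ΔDS libraries lie between 48.1 and 59.0 and the +WT libraries between 17.2 and 32.6. The groups overlap for RS5, and the share of all genes whose groups overlap was not counted.

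SIP2 was abundant in all states, and its level was 1.91 times as high in imbibed as in dry ΔDS seeds and 2.16 times as high in imbibed as in dry +WT seeds. Its level was 85.5, 163 and 140 in dry, imbibed and salt ΔDS seeds, against 86.5, 186 and 125 in +WT seeds. The authors' deposited tables gave -0.02 (95% interval -0.13 to 0.09) in dry and -0.19 (-0.39 to 0.01) in imbibed seeds, past the threshold in neither. In salt seeds SIP2 rose 1.13-fold in the authors' deposited table (0.17 ± 0.053, adjusted p = 0.0127 by DESeq2), to 10245 in ΔDS against 9095 in +WT. With equal totals the imbibed value was -0.0047 and the salt value 0.33, where the median tested gene stood at 0.20 and 0.16.

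The 4 synthases and relatives summed to a level of 95.9 in dry ΔDS and 94.5 in dry +WT seeds. In imbibed seeds the sum was 360 in ΔDS and 274 in +WT, and DIN10 made up 51.2% of it in ΔDS and 22.7% in +WT. In salt seeds the sum was 191 in ΔDS and 177 in +WT, of which SIP2 held 73.4% in ΔDS and 70.4% in +WT.

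Counted over the family, 5 of 8 members could be tested in dry seeds, of which 1 rose (STS). Of all genes tested there 6.06% passed, 2.96% higher and 3.10% lower in ΔDS. In imbibed seeds 6 could be tested, of which 1 rose (DIN10) and 2 fell (GolS1 and STS), while 40.8% of all genes passed, 21.3% higher and 19.5% lower. In salt seeds 6 could be tested, of which 2 rose (DIN10 and SIP2) and 1 fell (GolS1), while 14.0% of all genes passed, 6.98% higher and 6.99% lower. With so few members the counts are not read as a property of the family. The median log2 fold change over the tested members was -0.04, -0.36 and 0.16 in dry, imbibed and salt seeds, beside 0.00, 0.02 and 0.00 over all tested genes. Where a mean of at least 5 CPM was required, DIN10 fell outside the test in salt seeds.

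**Figure D4:**
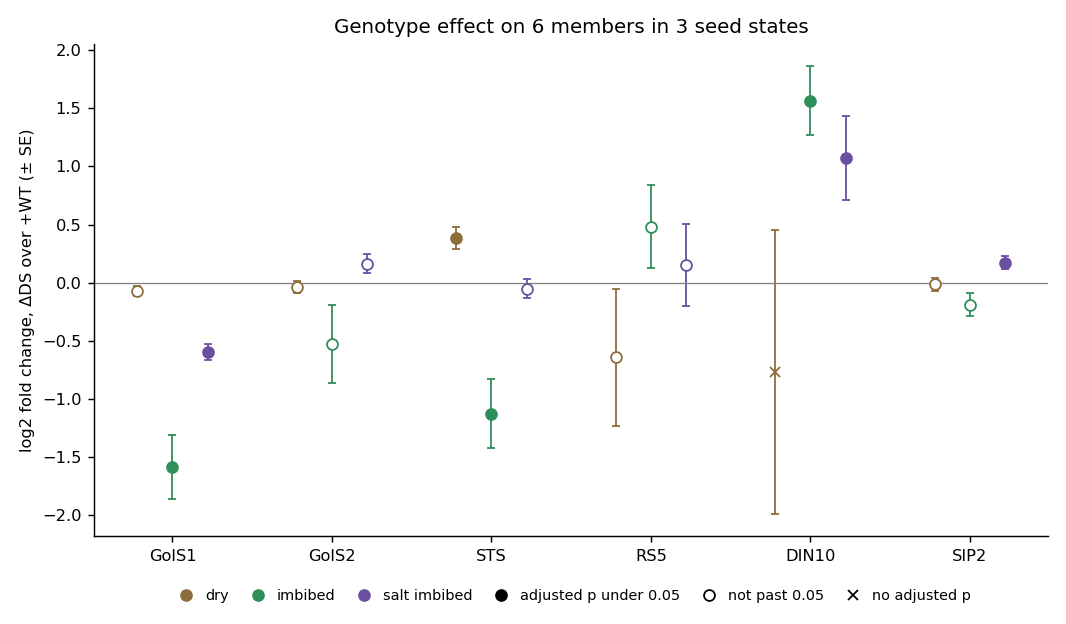
Log2 fold change of ΔDS over +WT for 6 members in the authors' deposited tables, with bars of 1 SE, in dry (brown), imbibed (green) and salt imbibed (purple) seeds. Filled points passed an adjusted p of 0.05 and the cross marks a gene without an adjusted p. GolS1 and STS are lowest in imbibed seeds at -1.59 and -1.13, and DIN10 is highest there at 1.57.

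Whether the genotype effect itself differed between states was asked with an approximate z test on the difference of the authors' log2 fold changes, with Benjamini-Hochberg adjustment over every gene that has an adjusted p in each table of the pair. The 3 differences share libraries with each other, since each state enters 2 of them. For GolS1 the effect in imbibed seeds lay below that in dry seeds by -1.51 ± 0.28 (SE, adjusted p = 6.54e-06, z test by Benjamini-Hochberg). For STS the same difference was -1.51 ± 0.31 (adjusted p = 5.41e-05). No other member passed among the 5 tested, while 25.0% of all genes did, 8.49% with a positive and 16.5% with a negative difference.

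Between salt and imbibed seeds 3 of 6 members differed, beside 9.16% of all genes, 5.85% with a positive and 3.31% with a negative difference. Salt minus imbibed was 0.99 ± 0.29 for GolS1 (adjusted p = 0.0146), 1.08 ± 0.31 for STS (adjusted p = 0.0140) and 0.36 ± 0.12 for SIP2 (adjusted p = 0.0283) in this z test. For DIN10 it was -0.50 (95% interval -1.41 to 0.42), so its rise in ΔDS was not shown to differ between the states in spite of the gap in level. For GolS2 the value was 0.70 (0.02 to 1.37), with an adjusted p of 0.186. Between salt and dry seeds 2 of 5 members differed, beside 5.83% of all genes, 1.64% with a positive and 4.19% with a negative difference. They were GolS1 by -0.52 ± 0.082 (adjusted p = 5.10e-08) and STS by -0.44 ± 0.13 (adjusted p = 0.0158). The STS call was lost with equal totals (-0.36, adjusted p = 0.0821), where SIP2 passed at 0.27 (adjusted p = 0.0174).

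Other genes of the pathway were taken from lists of enzymes and regulators around these sugars, chosen by role. Their counts stand against the 6.06%, 40.8% and 14.0% of all genes that passed in dry, imbibed and salt seeds, and with lists this short none is read as a result about its list. Of 6 genes of myo-inositol synthesis 3 rose and 2 fell in imbibed seeds. The inositol-phosphate synthase genes were among both, with MIPS1 and MIPS2 lower and MIPS3 (AT5G10170) higher, the last with 10.4 implied normalised counts in ΔDS and 0.37 in +WT seeds (4.798 ± 1.62, adjusted p = 0.0108 by DESeq2 in the authors' deposited table). MIPS1 (AT4G39800) had 689 implied normalised counts in ΔDS and 1423 in +WT imbibed seeds (-1.05 ± 0.21 in the authors' deposited table). MIPS2 (AT2G22240) had 159 in ΔDS and 426 in +WT imbibed seeds (-1.42 ± 0.35 in the authors' deposited table). MIPS2 was also lower in dry seeds, where it was far more abundant, with 32933 in ΔDS and 37856 in +WT (-0.20 ± 0.043), and in salt seeds, with 832 in ΔDS and 1248 in +WT (-0.59 ± 0.10, both in the authors' deposited tables). It was the 1 gene of the 5 tested to pass in dry seeds and in salt seeds.

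Genes that make UDP-galactose or its precursor passed in 1 of 7 cases in dry seeds (1 lower), 3 of 7 in imbibed seeds (2 higher and 1 lower) and 2 of 7 in salt seeds (both lower), where 6.06%, 40.8% and 14.0% of all genes passed. The UDP-glucose epimerase gene UGE1 (AT1G12780) was at -0.31 ± 0.080 in dry and -0.34 ± 0.052 in salt seeds in the authors' deposited tables. In imbibed seeds the UDP-glucose pyrophosphorylase gene UGP2 (AT5G17310) was at -1.06 ± 0.24 and the epimerase gene RHD1 (AT1G64440, also called UGE4) at 0.50 ± 0.12 in the authors' deposited table. The pyrophosphorylase gene UGP1 (AT3G03250) went the other way from UGP2 in imbibed seeds. It rose to an implied 1750 normalised counts in ΔDS against 1169 in +WT (0.58 ± 0.15 in the authors' deposited table). UGP2 was at -0.36 ± 0.056 in salt seeds in the authors' deposited table.

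Sucrose, the acceptor of the galactosyl group, is made by sucrose-phosphate synthase and phosphatase. None of 7 such genes passed in dry seeds by DESeq2 in the authors' table, with 2 at an unadjusted p under 0.05. In imbibed seeds, where 40.8% of all genes passed, 1 rose and 2 fell of 7, with the phosphatase genes AT3G54270 at 0.61 ± 0.18 and SPP2 (AT3G52340) at -0.54 ± 0.20 in the authors' deposited table, and in salt seeds, where 14.0% passed, 1 fell of 7, SPS1F (AT5G20280) at -0.16 ± 0.052 in the authors' deposited table. Among sucrose synthases, which split sucrose, SUS3 (AT4G02280) was the 1 gene of 5 to pass in imbibed seeds, with 3603 in ΔDS and 7221 in +WT (-1.003 ± 0.22 in the authors' deposited table). It was also the 1 of 4 in salt seeds (-0.27 ± 0.046 in the authors' deposited table), and 0 of 4 passed in dry seeds by DESeq2, with 0 at an unadjusted p under 0.05.

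Enzymes that break down these sugars held the largest single change of the pathway lists with at least 20 normalised counts. The alpha-galactosidase gene AGAL2 (AT5G08370) rose to 465 implied normalised counts in imbibed ΔDS seeds, against 35.1 in imbibed +WT seeds (3.73 ± 0.37, adjusted p = 6.18e-21 by DESeq2 in the authors' deposited table). It was nearly silent in the other states, with 1, 2 and 0 reads in dry ΔDS libraries, against 4, 0 and 1 in dry +WT libraries, and with 2, 4 and 5 reads in salt ΔDS libraries, against 6, 0 and 2 in salt +WT libraries. Of the other 3 genes tested with it in imbibed seeds AGAL1 (AT5G08380) and AT3G56310 fell, the second at -0.39 ± 0.11 in the authors' deposited table. None of 3 genes in dry and 4 in salt seeds passed by DESeq2, with 0 at an unadjusted p under 0.05 in both. The vacuolar invertase list had 1 gene tested in imbibed seeds and none in the other states, and no call by DESeq2, with 0 at an unadjusted p under 0.05.

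Myo-inositol oxygenase takes inositol out of the pathway. Both tested genes rose in salt seeds, where 14.0% of all genes passed, MIOX1 (AT1G14520) to 10085 in ΔDS against 6261 in +WT (0.69 ± 0.068) and MIOX2 (AT2G19800) to 174 in ΔDS against 109 in +WT (0.68 ± 0.21, both in the authors' deposited table). MIOX1 also rose in dry seeds (0.30 ± 0.066) and MIOX2 in imbibed seeds (0.37 ± 0.11) in the authors' deposited tables, each as the 1 call of its list, with 3 genes tested in dry and 2 in imbibed seeds, where 6.06% and 40.8% of all genes passed. The last relative of raffinose synthase, SIP1 (AT1G55740), rose in imbibed seeds to 6969 in ΔDS against 5237 in +WT (0.41 ± 0.15, adjusted p = 0.0160 by DESeq2 in the authors' deposited table). It held 10, 10 and 8 reads in dry ΔDS libraries, against 6, 8 and 2 in dry +WT libraries. The list of other galactinol synthase genes also held GATL10 (AT3G28340) and GATL4 (AT3G06260), which are named for another family. Both were among those tested in imbibed seeds, and GATL4 also in dry and salt seeds. Of this list GolS10 (AT5G30500) fell in imbibed seeds (-1.01 ± 0.30 in the authors' deposited table), 1 of 5 tested. None of 3 passed in dry or in salt seeds by DESeq2, with 1 at an unadjusted p under 0.05 in each.

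**Figure D5:**
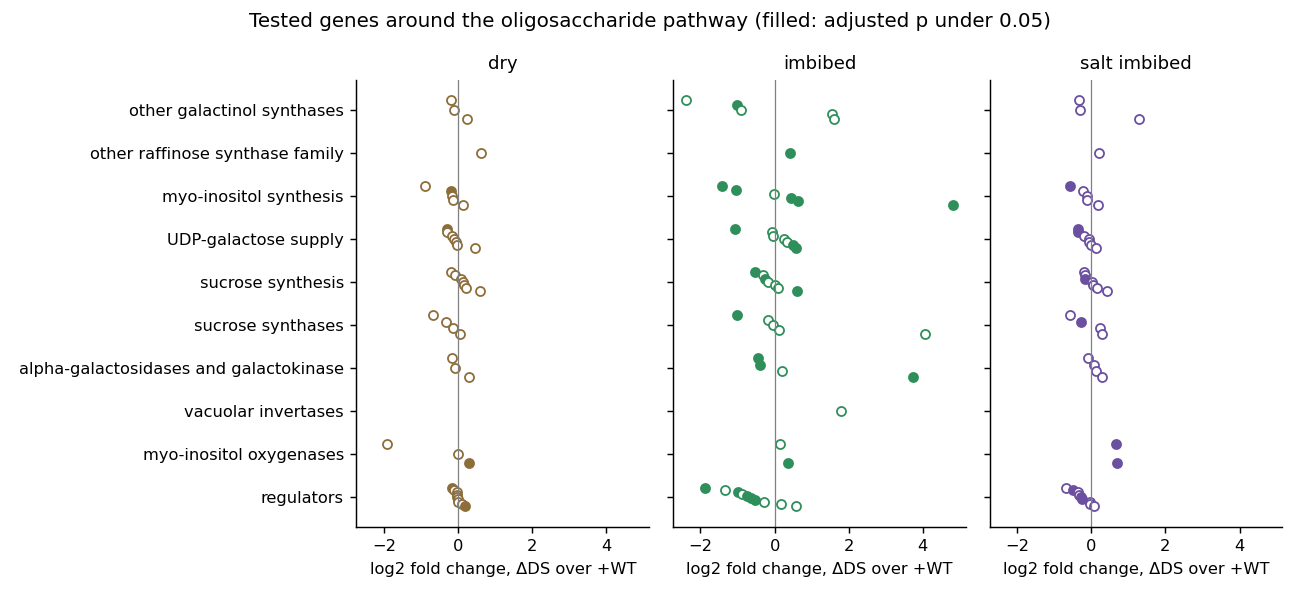
Log2 fold change of ΔDS over +WT, from the authors' deposited tables, for the tested genes of 10 lists around the pathway in dry, imbibed and salt imbibed seeds. Each point is a gene, filled where the adjusted p was under 0.05. In imbibed seeds AGAL2 stands at 3.73 among the alpha-galactosidases, and all 5 called regulators lie below 0.

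The regulators are known to act on galactinol synthase genes or on seed maturation. Of 10 tested in imbibed seeds 5 fell, where 19.5% of all genes were called lower and 40.8% passed, and the smallest adjusted p values belonged to the heat shock factor genes HSFA1E (AT3G02990, -0.99 ± 0.16) and HSFA9 (AT5G54070, -1.88 ± 0.34) in the authors' deposited table. In salt seeds 3 of 9 fell, where 6.99% of all genes were called lower, with HSFA9 at -0.48 ± 0.091 and HSF3 (AT5G16820, also called HSFA1B) at -0.25 ± 0.062 in the authors' deposited table. Dry seeds had 1 higher and 1 lower of 9, where 6.06% of all genes passed, the dehydration factor DREB2A (AT5G05410) at 0.20 ± 0.047 and the abscisic acid factor ABI5 (AT2G36270) at -0.17 ± 0.041 in the authors' deposited table. The cold factors CBF1, CBF2 and DREB1A had at most 2.40 mean normalised counts in any table.

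Genes with a pattern like that of a member were sought by the root mean square distance, in log2 units, over the 6 group levels after centring each gene on its own mean. All genes with at least 100 mean normalised counts in every table entered, 10537 or 10538 beside each member. The nearest to GolS1 was HSA32 (AT4G21320), a gene of acquired heat tolerance, at 0.080, which stood at 0.09, -1.48 and -0.58 in dry, imbibed and salt seeds in the authors' deposited tables. Neighbours were chosen on levels that carry these fold changes, so a likeness to GolS1 in them follows from the choice. Nearest to GolS2 was AT5G01670 at 0.27, to STS MBD11 (AT3G15790) at 0.17, to RS5 AT5G52840 at 0.18 and to SIP2 AT1G12530 at 0.045. The second nearest were AT1G28640 for GolS1 (0.12), AT5G45690 for GolS2 (0.30), AT3G48240 for STS (0.22), AT5G01430 for RS5 (0.19) and AT1G72480 for SIP2 (0.047). GolS2, STS and RS5 thus had no neighbour as close as those of GolS1 and SIP2. The distance was not scaled by the range of each gene over the groups.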

How the data were processed

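RNA-seq of 18 seed samples was used through 3 tables, 1 per seed state. HISAT2 and DESeq2, without versions, and the build TAIR10 are named per the submitters' processing notes. The read counter, its annotation and strandedness were not given in the sources used here. The signal column deposited by the authors is the mean over libraries of read counts over size factors. The log2 fold change with its SE, the Wald statistic (a score) and the p-values, raw and adjusted, are also those deposited by the authors, per the file headers. The direction of the fold change is read from the order of the names, and every sign would turn if that order were the reverse.

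The files gave no counts per sample, so the planned edgeR test did not apply and the authors' adjusted p, at 0.05, was used. Members and lists were chosen with earlier results of these data known. Genotype levels were computed from the mean and fold change with 3 libraries taken for each genotype, scaled to CPM by the sum of the table and per kilobase of exon (RefSeq, TAIR10.1, which holds 32835 of the 33602 identifiers). Differences between states were tested with a z test and Benjamini-Hochberg adjustment over 18219 (salt minus imbibed), 16228 (imbibed minus dry) and 16281 genes (salt minus dry).

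Genes with a single read showed the value of 1 read in each of 6 libraries per table. Whole reads whose weighted sum gives the deposited mean were then searched in the dry and salt tables, to the last digit printed. A single solution was found for every member with a mean under 50, and for all 2920 dry and 3460 salt genes with a mean under 0.9. The side of a library is the sign of the fold change of its single-read genes. Libraries are not tied to replicate numbers. The imbibed table is printed with fewer digits and was not used for this.

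The 8 members and FLOE1 were named in every state, with up to 2 called genes per list and state by smallest adjusted p and 2 genes of most similar pattern per member tested in all states. The embryo and storage markers are given as counts and sums without names. A few values of other states and the reads of AGAL2 and SIP1 were added after they were seen. So were AGAL1, MIPS3, UGP1, EPR1 and AGL62 after imbibition, GATL10, GATL4, ARF1A1C, AT5G20260, TT10, BAN and the cold factors. Alternatives were adjustment over every gene with a p-value, a fold change of at least 2, a minimum mean of 5 CPM, equal totals, removal of a lowess trend over exon length (span 0.3), centring on the median gene, and a t distribution with 4 or 8 degrees of freedom. The steps were tested on simulated data and run with pandas 2.3.3, numpy 2.4.6, statsmodels 0.14.6, scipy 1.17.1 and matplotlib 3.10.9 in Python 3.11.15. Read recovery was simulated only with fewer reads per library than the highest counts given here for DIN10 and RS5.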

Additional observations from a re-analysis of the deposited data

Results flagged for a closer look

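For 3 members the genotype effect differed between seed states by the z test of the difference itself, adjusted over all genes. GolS1 differed in all 3 pairs of states, by 0.99 for salt minus imbibed, by -1.51 for imbibed minus dry and by -0.52 for salt minus dry on the log2 scale. STS differed in the same pairs, by 1.08, -1.51 and -0.44 in that order. The last of these was lost with equal totals (-0.36, adjusted p = 0.0821 by the z test). SIP2 differed by 0.36 for salt minus imbibed. Each pair of these differences shares the libraries of 1 state.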

How the results depend on the processing

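In dry, imbibed and salt seeds 1, 3 and 3 members passed by DESeq2 in the authors' tables. A fold change of at least 2 left 0 (dry), 3 (imbibed) and 1 (salt). Over all genes that limit left 116 of 16597 tested in dry, 2159 of 19430 in imbibed and 349 of 18518 in salt seeds. A t distribution with 4 degrees of freedom left 0 in each state (1, 3 and 3 at an unadjusted p under 0.05, and 1, 0 and 3 genes of the whole tables at the adjusted p). With 8 degrees of freedom the differences between states kept 0 members for salt minus imbibed (3 unadjusted), 0 for imbibed minus dry (2 unadjusted) and 1 for salt minus dry. Over all genes that distribution kept 0, 127 and 80 differences in that order. With equal totals the median tested gene moved to 0.08, 0.20 and 0.16 in dry, imbibed and salt seeds, and calls higher in ΔDS made up 82.9%, 77.2% and 89.8%, against 48.9%, 52.1% and 49.96% as deposited. That scaling turned GolS1 (0.0035), GolS2 (0.041) and SIP2 (0.063) in dry and STS (0.10) in salt seeds, none of them called. In salt seeds it brought GolS2 past the threshold, for 4 members in all, while calls over all genes went from 2586 to 4182. A mean of at least 5 CPM left 2 members in salt seeds, with 2387 calls over all genes. Per kilobase GolS2 in dry (53.1%) and GolS1 in imbibed (39.3%) and salt seeds (38.5%) held the largest share of the summed +WT level. Without division by length these shares were 50.03%, 24.3% and 27.1%, and SIP2 had more counts than GolS1 in imbibed and salt +WT seeds. Of 175 values of single members under an alternative 152 kept direction and call, 17 lost a call, 2 gained one and 4 turned. The 152 include values that were called in neither setting. Adjustment over every gene, the fold change limit, the minimum mean and the t distribution keep the deposited fold change, so direction could not turn there. The 152 are thus no measure of how firm the calls are. No paired analysis was possible because the tables give 1 mean per gene and recovered reads are tied to no replicate number. Leaving out a library was run only where reads per library were recovered, an alternative chosen after seeing the data. It gave log2 ratios of 0.85 to 1.26 for DIN10 in salt, -1.31 to -0.36 for RS5 in dry and -0.08 to 0.27 for RS5 in salt seeds, with no test. Few reads limit what can be said of RS5 in all states, DIN10 in dry seeds and GolS4.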
